A study of Mus musculus with 10 samples.

Results

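The genes described here are 10 regulators of the epithelial-mesenchymal transition (EMT): the transcription factors Zeb1, Zeb2, Snai1, Snai2, Prrx1 and Foxc2, which are associated with the mesenchymal state, the transcription factors Grhl2 and Ovol1 of the epithelial state, and the epithelial splicing regulators Esrp1 and Esrp2. They were chosen by symbol and not by a measured value, and are 10 of the 52459 genes of the expression table. Their RNA was measured in 10 hepatocellular carcinomas (HCC) of transgenic FVB/N mice, 5 named MYC-HCC and 5 named MYC/Twist1-HCC. MYC-HCC arose in LAP-tTA/TRE-MYC mice and MYC/Twist1-HCC in mice that carried TRE-Twist1/Luc in addition, so that the MYC transgene was shared by all 10 tumors, and Twist1 and firefly luciferase were added together in the second group. In all mice the transactivator tTA is driven by the LAP promoter, which is active in liver cells, and it drove the transgenes from adulthood, once doxycycline was withdrawn. Tumors were taken when the mice became moribund, and the age at that time is not given per tumor. The labels do not say whether each tumor came from a separate mouse, so the p-values measure the spread between these libraries.

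EMT is a program in which epithelial cells loosen their junctions and take on features of migrating mesenchymal cells. Zeb and Snail proteins are zinc finger repressors that bind E-box motifs in epithelial genes such as Cdh1, while Grhl2 and Ovol1 keep epithelial genes active or hold back Zeb1, and the miR-200 family represses Zeb1 and Zeb2. Esrp1 and Esrp2 are RNA-binding proteins that select epithelial exons in transcripts such as Fgfr2, Cd44, Ctnnd1 and Enah, and Esrp2 is the family member of adult hepatocytes. Twist1, the transgene of the second group, is a basic helix-loop-helix factor of the same program.

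Levels are given as FPKM, reads per kilobase of gene model and per 1M reads. The depth estimated from the table was 19.2M to 23.8M reads per library, at which 1 read on a model of 1 kb is 0.0421 to 0.0522 FPKM. Twist1 reached at most 0.29 FPKM in MYC-HCC, against 1.62 to 77.2 FPKM with the Twist1 transgene, where reads of the transgene and of the mouse gene cannot be told apart. The MYC-HCC columns share a heading and are called libraries 1 to 5 in column order. MYC-HCC library 4 held the highest value of 18.3% and the lowest value of 23.2% of the 12146 genes tested. These were the largest shares of the 10 libraries, but others came near. MYC-HCC library 2 held 17.05% and 13.6%, and MYC/Twist1-HCC replicate 5 held 15.1% and 17.9%. In library 4 Cdh1, the epithelial cadherin, was 11.7 FPKM against 109 to 143 in the other 4 MYC-HCC and 69.6 to 105 in MYC/Twist1-HCC. Most of the 28 tested genes of the epithelial target list described below had their lowest MYC-HCC value in library 4. Not all did: Mal2 was 22.8 FPKM there against 4.30 to 16.7 in the other MYC-HCC, and Lsr 34.6 against 22.6 to 29.05. Cdh1, Mal2 and Lsr were picked with their values known. The hepatocyte markers, of which 9 of 10 were in the table, summed to 2218 to 10250 FPKM in MYC-HCC and 6387 to 18680 in MYC/Twist1-HCC, with the highest MYC-HCC sum in library 4. The 11 endothelial markers summed to 82.1 FPKM in library 4, 19.7 to 27.3 in the other MYC-HCC and 21.0 to 55.7 in MYC/Twist1-HCC, and the 13 stellate cell and fibroblast markers to 101 against 26.0 to 55.1 and 7.67 to 71.2. Each result that rests on library 4 is therefore given with and without it. In bulk tumors, fewer cells of a type and less RNA per cell cannot be told apart.

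The splicing factor pair had the largest difference in level among the paralog pairs of members, and reads of paralogs can be told apart only where their sequences differ. In GRCm38, Esrp1 occupies chromosome 4 from 11331933 to 11386783 and Esrp2 occupies chromosome 8 from 106130319 to 106136974. Their coding sequences, 2043 and 2151 bases long, share no identical run above 35 bases. The longest such runs were 23 bases for Zeb1 and Zeb2, 22 for Snai1 and Snai2, 20 for Ovol1 and Ovol2 and 29 for Grhl2 and Grhl1. Reads longer than these runs differ between the paralogs over their coding parts.

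The 10 genes spanned a wide range of levels per length. Esrp2 was the highest, at a median of 28.0 FPKM over the 10 libraries, which is the 97.1th percentile of all genes of the table by mean level. Snai1, Zeb1 and Zeb2 followed with medians of 1.79, 1.38 and 0.945 FPKM, then Snai2, Ovol1, Prrx1, Foxc2, Esrp1 and Grhl2 with 0.32, 0.275, 0.175, 0.055, 0.015 and 0.01 FPKM. Esrp2 exceeded Snai1, Zeb2 exceeded Snai2 and Prrx1 exceeded Foxc2 in 10 of 10 libraries. Snai1 was above Zeb1 in 6 of 10, Zeb1 above Zeb2 in 7, Snai2 above Ovol1 in 5, Ovol1 above Prrx1 in 7 and Esrp1 above Grhl2 in 6, so these neighbours did not have the same order in all libraries.

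**Figure D1:**
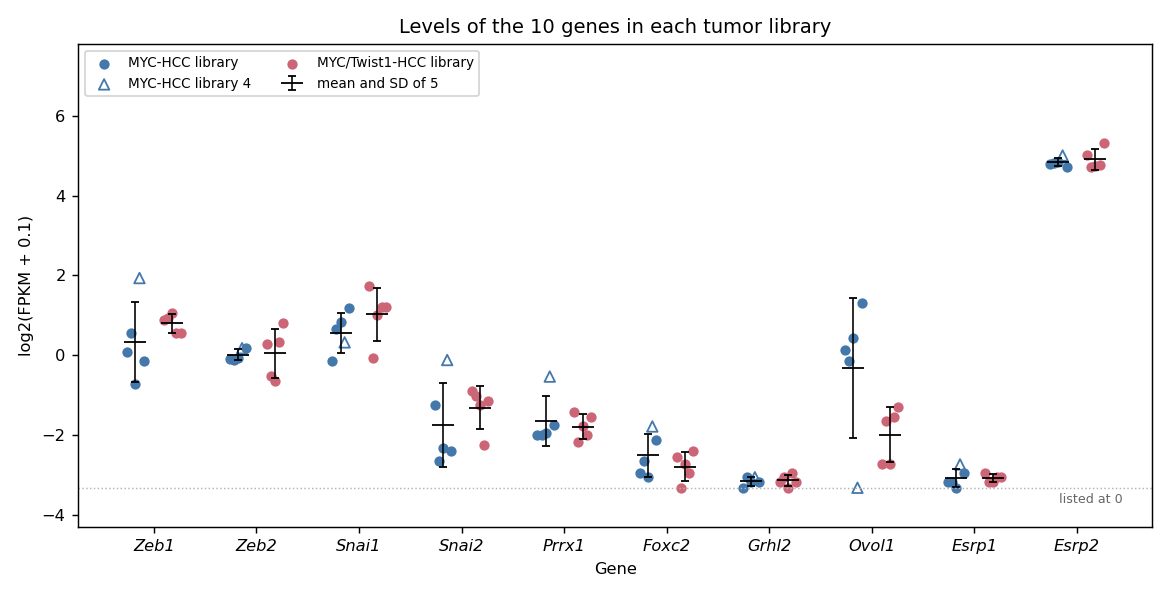
Level of each of the 10 genes as log2(FPKM + 0.1), with 1 point per library, MYC-HCC in blue and MYC/Twist1-HCC in red, the mean and SD of 5 in black and MYC-HCC library 4 as an open triangle. Esrp2 is far above the other genes in all libraries, Grhl2 and Esrp1 lie near the line of a value of 0, and library 4 is the highest MYC-HCC for Zeb1, Snai2, Prrx1, Foxc2, Esrp1 and Esrp2, ties for the highest for Zeb2 and is the lowest for Ovol1.

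None of the 10 genes passed the test between the groups when all 10 libraries were used. Genes that reached 0.5 FPKM in 5 or more libraries were compared as log2(FPKM + 0.1) with limma, and 4 members passed this filter (Zeb1, Zeb2, Snai1 and Esrp2). Of these 4, 0 were higher and 0 lower at an adjusted p below 0.05, and 0 had an unadjusted p below 0.05. The background was small too: of the 12146 genes tested, 3 (0.0247%) were higher and 0 (0.0%) lower, and an unadjusted p below 0.05 was reached by 7.83% in the higher and 8.51% in the lower direction. The 6 members below the filter were compared by an exact permutation test of each gene (two-sided, unadjusted, smallest possible p = 0.0079), and 0 of the 6 had a p below 0.05. In limma with no filter 0 of the 6 were called, as against 2 (0.00689%) higher and 0 lower of 29038 genes. The groups overlapped for all 10 members, while they did not for 1.22% (higher) and 0.789% (lower) of the genes with a value above 0.

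**Figure D2:**
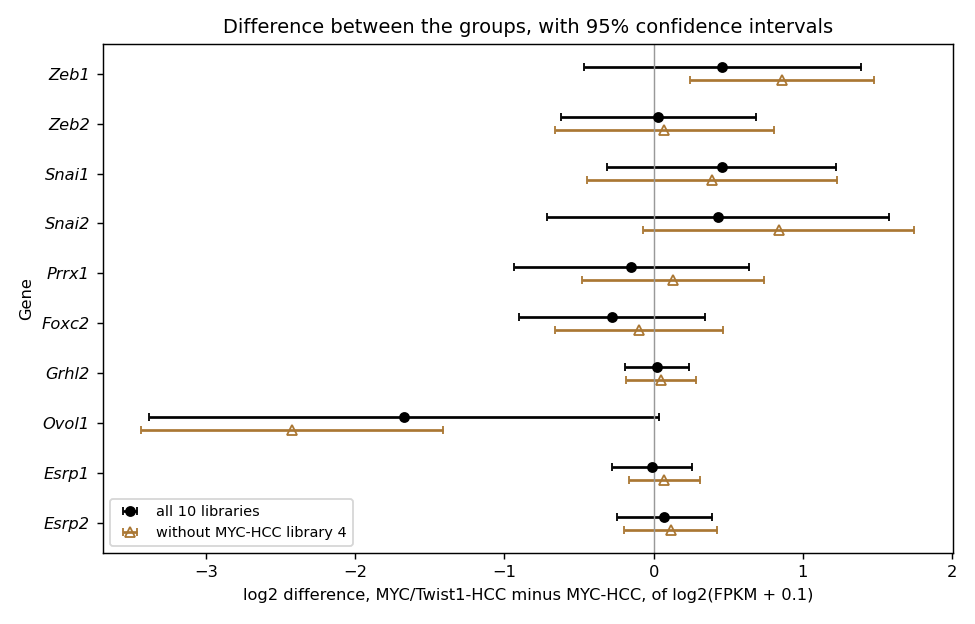
Log2 difference of each gene, MYC/Twist1-HCC minus MYC-HCC, with its 95% confidence interval from limma, with all 10 libraries (circles) and without MYC-HCC library 4 (triangles, fit with no filter). With all libraries each interval includes 0, and without library 4 those of Zeb1 (0.24 to 1.47) and Ovol1 (-3.43 to -1.41) do not.

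Zeb1, a repressor of epithelial genes, lies on chromosome 18 from 5591860 to 5775467. MYC-HCC libraries 1 to 5 had 0.95, 1.38, 0.51, 3.72 and 0.80 FPKM, and MYC/Twist1-HCC replicates 1 to 5 had 1.75, 1.82, 1.99, 1.37 and 1.37 FPKM. MYC-HCC library 4 held the highest value of all 10, and the other 4 MYC-HCC were at or below 1.38 FPKM, which is 0.01 above the lowest MYC/Twist1-HCC. The means were 1.47 ± 1.29 (SD, n = 5) and 1.66 ± 0.279 (SD, n = 5) FPKM, a log2 difference of 0.46 (SE 0.42, limma adjusted p = 0.602). Without library 4 the MYC-HCC mean was 0.91 ± 0.363 (SD, n = 4) FPKM and the log2 difference 0.86 (SE 0.27, limma adjusted p = 0.0657), where 4.33% of all genes tested were called higher. Zeb1 passed in 1 alternative, limma with library quality weights, at a log2 difference of 0.80 (adjusted p = 0.0495, range 0.0495 to 0.860 over the alternatives), and there 8.3% of all genes tested were called higher and 12.1% lower. The highest Zeb1 value came with the highest endothelial and stellate cell marker sums, and their part in it was not tested. MYC/Twist1-HCC replicate 1 had the next highest sums of both lists, 55.7 and 71.2 FPKM, with 1.75 FPKM of Zeb1.

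Zeb2, the paralog of Zeb1, lies on chromosome 2 from 44983632 to 45117395. Its levels in the same order were 0.84, 0.82, 0.86, 1.03 and 1.03 FPKM for MYC-HCC, then 1.11, 0.60, 0.54, 1.15 and 1.65 FPKM for MYC/Twist1-HCC. The lowest and the highest values were both in MYC/Twist1-HCC, and the MYC-HCC lay between them. The log2 difference was 0.03 (SE 0.30, 95% interval -0.62 to 0.68, limma adjusted p = 0.966), and -0.09 after quantile normalization. An antisense gene, Zeb2os (0.17 to 2.37 FPKM), overlaps 653 bases of its exons. The strand of the libraries is not given in the sources used here, so reads from that overlap cannot be assigned. The ratio of Zeb1 to Zeb2 was 3.61 in MYC-HCC library 4 and 0.593 to 1.68 in the other MYC-HCC, against 0.830 to 3.69 in MYC/Twist1-HCC, so the ranges overlapped.

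Snai1, which encodes Snail, lies on chromosome 2 from 167538195 to 167542814. The MYC-HCC libraries had 0.81, 1.47, 1.67, 1.15 and 2.16 FPKM of it, and the MYC/Twist1-HCC libraries 3.20, 0.86, 1.92, 2.23 and 2.22 FPKM. In 20 of the 25 pairs of libraries the MYC/Twist1-HCC value was the higher, and the groups overlapped, with replicate 2 as low as the lowest MYC-HCC but for 0.05 FPKM. The means were 1.45 ± 0.513 (SD, n = 5) and 2.09 ± 0.838 (SD, n = 5) FPKM, a log2 difference of 0.46 (SE 0.35, 95% interval -0.31 to 1.22, limma adjusted p = 0.518). The depth of this short gene was 27.9 to 117 reads per library, so counting error is a part of its spread. Without library 4 the log2 difference was 0.39.

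The Snai1 promoter is shown because it carries the E-box that Snail and Zeb proteins bind, CACCTG. The promoter sequences from RefSeq (GRCm38.p6) covered 3 of the 10 members with 6 start sites: Snai1, Zeb2 and Prrx1. Searched on either strand over the 250 bases before each start, CACCTG was found for Snai1 and not for Zeb2 or Prrx1, and 17.2% of the 32851 promoters of the table hold it. The 120 bases at chr2:167538045-167538164, plus strand, have it in capitals, with its first base 126 bases before the start:
Snai1: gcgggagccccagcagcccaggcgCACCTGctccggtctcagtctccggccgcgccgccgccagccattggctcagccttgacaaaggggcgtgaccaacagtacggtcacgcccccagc
A match of these letters is a description of the sequence, and binding was not measured.

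Snai2, which encodes Slug, lies on chromosome 16 from 14705852 to 14709385 and was below the filter. Its MYC-HCC values were 0.32, 0.06, 0.10, 0.82 and 0.09 FPKM, and its MYC/Twist1-HCC values 0.44, 0.39, 0.32, 0.11 and 0.35 FPKM. Library 4 again held the highest value, and 3 of the other 4 MYC-HCC were at or below 0.10 FPKM. The log2 difference was 0.43 (SE 0.52, limma with no filter, adjusted p = 0.749, exact permutation p = 0.381). Without library 4 it was 0.84 (exact permutation p = 0.0476, limma with no filter, adjusted p = 0.326). No share over all genes was taken for the permutation test. In limma without library 4, 1554 of the 12146 genes tested had an unadjusted p below 0.05 in the higher direction and 2227 in the lower. The Snai2 values rest on 2.85 to 34.7 reads per library. Snai1 exceeded Snai2 in all 10 libraries, by 1.40 to 24.5 times.

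Prrx1, a homeobox factor of mesenchyme, lies on chromosome 1 from 163245119 to 163313710. The MYC-HCC values were 0.15, 0.15, 0.16, 0.59 and 0.20 FPKM, and those of MYC/Twist1-HCC 0.27, 0.12, 0.19, 0.15 and 0.24 FPKM. Apart from library 4 the 9 libraries lay within 0.12 to 0.27 FPKM. The log2 difference was -0.15 (exact permutation p = 0.754) and turned to 0.13 without library 4 (exact permutation p = 0.540). Foxc2, a forkhead factor of mesoderm and lymphatic vessels, lies on chromosome 8 from 121116171 to 121118895 and ranged from 0.02 to 0.19 FPKM (MYC-HCC) and from 0 to 0.09 FPKM (MYC/Twist1-HCC). Its highest value was in library 4 as well, and at 0 to 10.8 reads per library a difference was not detectable at this depth (log2 difference -0.28, 95% interval -0.90 to 0.34, exact permutation p = 0.373). Without library 4 the log2 difference of Foxc2 was -0.10 (exact permutation p = 0.730). Over the 10 members, 5 had their highest value of all in library 4: Zeb1, Snai2, Prrx1 and Foxc2, and also the epithelial Esrp1 at 0.05 FPKM. Among the MYC-HCC alone, Esrp2 was highest there as well and Zeb2 tied for the highest. Of the 5 members highest of all in library 4, only Zeb1 passed the filter. Over the 12146 genes that passed it, 18.3% were highest in that library. No such share was taken for genes below the filter.

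Ovol1 had the widest difference between the groups among the 10 genes, in the direction of lower values in MYC/Twist1-HCC. It encodes a zinc finger transcription factor of epithelia and lies on chromosome 19 from 5549136 to 5560646. MYC-HCC libraries 1 to 5 had 0.99, 0.81, 1.24, 0 and 2.38 FPKM of Ovol1. MYC/Twist1-HCC replicates 1 to 5 had 0.05, 0.22, 0.05, 0.24 and 0.31 FPKM. The 4 MYC-HCC other than library 4 were all above the 5 MYC/Twist1-HCC, and library 4, listed at 0, was below them all (3 reads would be 0.0411 FPKM). The means were 1.08 ± 0.861 (SD, n = 5) and 0.174 ± 0.118 (SD, n = 5) FPKM, 6.23-fold higher in MYC-HCC, from about 412 and 67.8 reads in all.

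With all 10 libraries the log2 difference of Ovol1 was -1.67 (SE 0.77, 95% interval -3.38 to 0.04) and did not pass (exact permutation p = 0.0952, limma with no filter, adjusted p = 0.511). Without library 4 it was -2.42 (SE 0.45, exact permutation p = 0.0159, the smallest that 4 against 5 libraries allow), and limma with no filter gave an adjusted p of 0.0558. The groups then did not overlap, which held in the same direction for 4.38% of the 29038 genes with a value above 0 and in the opposite direction for 3.12%, and 0.175% of 28591 genes were called lower and 0.29% higher in that fit. The direction was lower in MYC/Twist1-HCC in each alternative, from -2.42 to -0.73. The call by permutation was made without library 4 and with 1 in place of 0.1 added (p = 0.0476), and in no other alternative. A pseudogene, Gm31166, overlaps 690 bases of Ovol1 exons and was at 0 to 0.14 FPKM.

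**Figure D3:**
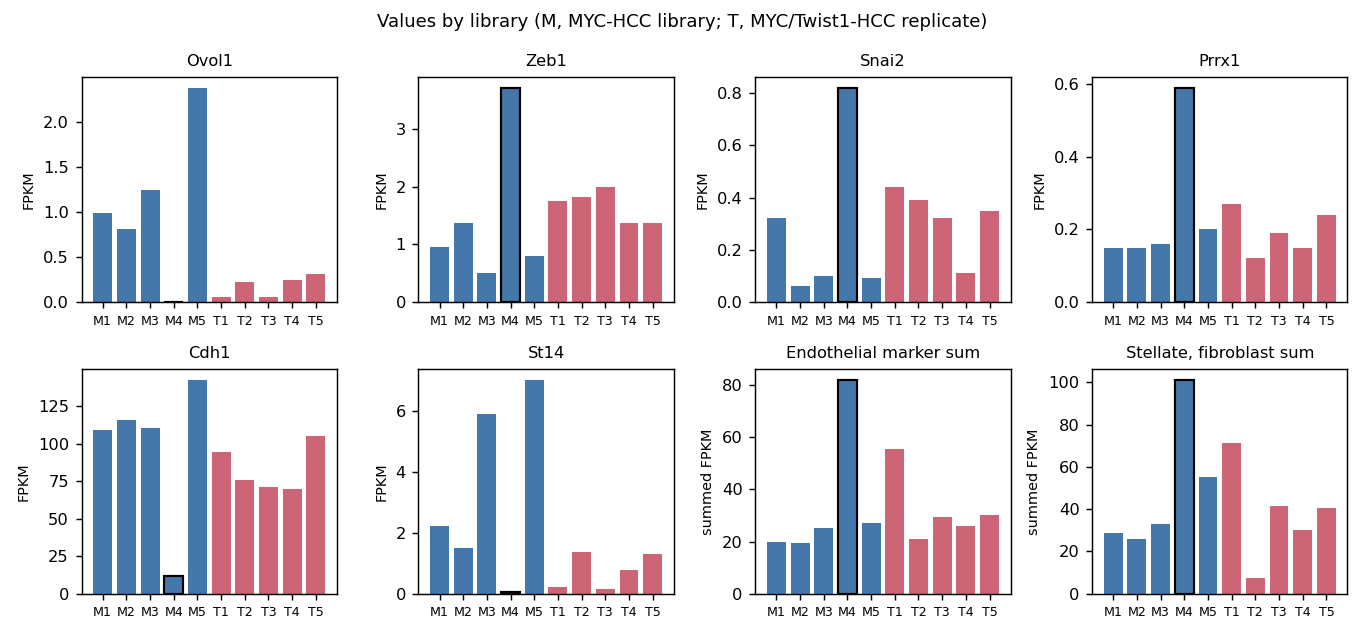
Level in FPKM (upper row and left of the lower row) and summed FPKM of marker genes (lower right) in each library, from M1 to M5 (MYC-HCC, blue) and T1 to T5 (MYC/Twist1-HCC, red), with library 4 outlined. Ovol1 is high in M1, M2, M3 and M5 alone, and M4 is listed at 0 for Ovol1 and has the lowest Cdh1 and St14 and the highest Zeb1, Snai2, Prrx1 and endothelial and stellate cell marker sums.

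The genes whose levels followed Ovol1 best over the 10 libraries were Bspry, St14 and Sgpp2, with Pearson correlations of log2 levels of 0.98, 0.96 and 0.95 (a list taken for Ovol1 after its values were seen). St14, the membrane protease matriptase of epithelia, had levels of 2.21, 1.49, 5.89, 0.06 and 7.03 FPKM among MYC-HCC, with 0.24, 1.38, 0.15, 0.77 and 1.31 FPKM among MYC/Twist1-HCC. As a gene chosen for its likeness to Ovol1, it too was lowest in library 4 and highest in library 5. Cdh1, picked with its values known, was lowest in library 4 too. Its other 4 MYC-HCC values, 109 to 143 FPKM, were all above the 69.6 to 105 FPKM of MYC/Twist1-HCC, so that without library 4 the groups did not overlap, as for 9.64% of the genes tested in that direction. The log2 difference of Cdh1 was then -0.53 (SE 0.16, limma adjusted p = 0.0642), and 0.14 (adjusted p = 0.931) with all 10 libraries. The points of these correlations share library and depth, and 1 of the 3 names (Bspry) was also among the 3 best without library 4.

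Grhl2, a grainyhead factor that keeps junction genes active in epithelia, lies on chromosome 15 from 37233036 to 37363569 and was nearly absent. Its values ended at 0.02 FPKM for MYC-HCC and at 0.03 FPKM for MYC/Twist1-HCC, about 25 reads over all 10 libraries. At this depth a difference was not detectable (log2 difference 0.02, exact permutation p = 0.976), and a value of 0 allows up to 0.0162 to 0.0164 FPKM in the 2 libraries listed at 0. Its paralogs were low too, with ranges of 0.18 to 0.67 (MYC-HCC) and 0.10 to 0.25 (MYC/Twist1-HCC) FPKM for Grhl1 and of 0.02 to 0.08 and 0 to 0.03 FPKM for Grhl3.

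The splicing regulators were measured at opposite ends of the range. MYC-HCC libraries 1 to 5 had 27.6, 28.3, 28.8, 32.0 and 26.2 FPKM of Esrp2, and MYC/Twist1-HCC replicates 1 to 5 had 32.4, 26.3, 26.5, 27.0 and 39.8 FPKM. All 10 libraries lay within 26.2 to 39.8 FPKM, library 4 was not apart, and replicate 5 was the highest. The means were 28.6 ± 2.15 (SD, n = 5) and 30.4 ± 5.83 (SD, n = 5) FPKM. The log2 difference was 0.07 (SE 0.14, limma adjusted p = 0.825), with a 95% interval of -0.24 to 0.39, or 0.845 to 1.31 times on the linear scale. The interval is the narrowest among the 4 members above the filter, and at 2392 to 3652 reads per library counting error is small. On the opposite strand, the genes Nfatc3 (5.69 to 9.15 FPKM) and 1810019D21Rik (6.13 to 20.8 FPKM) overlap 219 and 119 bases of Esrp2 exons.

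The values of Esrp1 were 0.01, 0.01, 0, 0.05 and 0.03 FPKM for MYC-HCC, and 0.03, 0.01, 0.01, 0.02 and 0.02 FPKM for MYC/Twist1-HCC. These are about 26.4 reads in all 10 libraries, and the groups overlapped (log2 difference -0.01, exact permutation p = 0.992). In the 9 libraries with a value for Esrp1, Esrp2 exceeded it by 640 to 2827 times per length. Only Esrp2 of the pair was thus at a level that the depth could compare.

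The other genes of the program were read from lists of related regulators and targets. Of 18 other EMT transcription factors, 17 were in the table and 7 were tested, with 0 called higher and 0 lower by limma. At an unadjusted p below 0.05, 1 was higher (Twist1). The median log2 difference was 0.14 against -0.04 over all genes tested, and 0.375 against -0.06 without library 4. Both medians of the list include Twist1, whose direction was set by the transgene. Twist1 had a log2 difference of 5.15 (SE 1.0, limma adjusted p = 0.0910, 0.0259 without library 4), and higher values in all 25 pairs of libraries. Tcf12, Tcf3 and Snai3 had log2 differences of 0.11, -0.16 and 0.21.

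Of 16 other epithelial transcription factors 8 were tested and 0 called, with a median log2 difference of 0.39, and 0.33 without library 4. With all 10 libraries, 1 was higher at an unadjusted p below 0.05. The 1 was Hnf4a, the hepatocyte nuclear factor, with ranges of 88.3 to 115 (MYC-HCC) and 110 to 205 (MYC/Twist1-HCC) FPKM (log2 difference 0.49, limma adjusted p = 0.251). Elf3 had a log2 difference of -0.87 (limma adjusted p = 0.354). Ovol2, the paralog of Ovol1, had 0.05 FPKM in library 4, 0.49 to 0.81 FPKM in the other MYC-HCC and 0.44 to 1.34 FPKM in MYC/Twist1-HCC. Unlike Ovol1, its ranges overlapped without library 4 (log2 difference 0.16, limma adjusted p = 0.776). The 6 hairpin genes of the miR-200 and miR-205 families were listed at 0 in all 10 libraries, and mature miRNAs were not measured here.

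Of 20 other splicing regulators of EMT 13 were tested and 0 called, with 0 higher and 3 lower at an unadjusted p below 0.05 and a median log2 difference of -0.25. The 3 were Hnrnpf, Srsf1 and Khdrbs1, at log2 differences of -0.95, -0.51 and -0.31 (limma adjusted p = 0.226, 0.231 and 0.293). Hnrnpf, an RNA-binding protein of exon choice, had MYC-HCC levels of 7.96, 10.9, 7.62, 2.67 and 5.22 FPKM and MYC/Twist1-HCC levels of 3.47, 3.11, 2.98, 4.22 and 2.33 FPKM. Library 4 was within the MYC/Twist1-HCC range, and the other 4 MYC-HCC were above it. Without library 4 the median was -0.35. Hnrnpf and Rbm47 were then called lower, at -1.25 and -0.72 (limma adjusted p = 0.0230 and 0.0259), where 4.72% of all genes tested were called lower. In that fit 6 of the 13 reached an unadjusted p below 0.05 in the lower direction, as did 2227 of the 12146 genes tested. Rbm47, chosen after its values were seen, had 9.10 FPKM in library 4 and 17.5 to 21.8 FPKM in the rest of MYC-HCC, against 9.89 to 13.8 FPKM in MYC/Twist1-HCC.

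Of 16 genes whose exons Esrp1 and Esrp2 select, 15 were tested at the gene level, with 0 called and a median log2 difference of -0.02. At an unadjusted p below 0.05 there were 1 higher and 1 lower. The 1 higher was Arhgef11, with a log2 difference of 0.54 (limma adjusted p = 0.252). Without library 4 the median was -0.13, 3 of the 15 were above 0 and 1 was called lower, where 4.72% of all genes tested were. Fgfr2, the receptor whose exon choice is the classical readout of Esrp activity, was below the filter. Its highest values were 0.79 FPKM (MYC-HCC) and 1.54 FPKM (MYC/Twist1-HCC), and FPKM per gene does not show which exon was used.

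Of 32 epithelial genes controlled by Zeb, Snail, Grhl2 or Ovol proteins, 28 were tested and 0 called, with 2 higher and 1 lower at an unadjusted p below 0.05 and a median log2 difference of 0.00, with 14 of the 28 above 0. Without library 4 the median was -0.39 with 9 of 28 above 0. An unadjusted p below 0.05 was then reached by 1 in the higher direction, not called. It was reached by 8 in the lower, of which 2 were called. Of the 12146 genes tested, 1554 reached it in the higher and 2227 in the lower direction in that fit, and 4.72% were called lower. Tjp3, a tight junction protein, was the 1 lower, with 4.34, 7.73, 6.57, 5.60 and 8.65 FPKM among MYC-HCC, then 2.70, 2.61, 2.23, 3.86 and 2.71 FPKM among MYC/Twist1-HCC. The groups did not overlap for Tjp3, as for 1.67% of the genes tested in that direction, and library 4 lay within the MYC-HCC range. Its log2 difference was -1.18 (SE 0.21, limma adjusted p = 0.0775) and -1.22 (SE 0.22, adjusted p = 0.0234) without library 4. St14 was called lower only without library 4 (-2.36, limma adjusted p = 0.0478). The 2 higher were Pkp2 and Krt18, a desmosome protein and a keratin of hepatocytes, with log2 differences of 0.52 and 0.77 (limma adjusted p = 0.291 and 0.300).

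Of 20 mesenchymal genes that rise in EMT, 15 were tested and 0 called, with 3 higher and 0 lower at an unadjusted p below 0.05 and a median log2 difference of 0.24. Without library 4 the median was 0.54. An unadjusted p below 0.05 was then reached by 6 in the higher direction, of which 1 was called, and by 0 in the lower. Of the 12146 genes tested, 1554 reached it in the higher direction in that fit, and 4.33% were called higher. Fn1, which encodes fibronectin, and Itgb3, an integrin subunit, were among the 3, at log2 differences of 1.34 and 1.41 (limma adjusted p = 0.160 and 0.291). Itgb3 had MYC-HCC levels of 0.06, 0.16, 0.15, 0.63 and 0.27 FPKM and MYC/Twist1-HCC levels of 2.04, 1.08, 0.61, 0.84 and 0.12 FPKM. Library 4 was the highest MYC-HCC, and the groups overlapped through it and through replicate 5. Without library 4 the log2 differences of Fn1 and Itgb3 were 1.42 and 1.72 (limma adjusted p = 0.0525 and 0.0858). The neutrophil markers, with sums of 2.51 to 7.25 FPKM among MYC-HCC, against 14.1 to 485 FPKM among MYC/Twist1-HCC, also moved with the groups. Without library 4, 4 of the 5 neutrophil, 4 of the 9 hepatocyte and 1 of the 3 lymphocyte markers tested were called higher by limma, and their part in these lists was not tested.

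**Figure D4:**
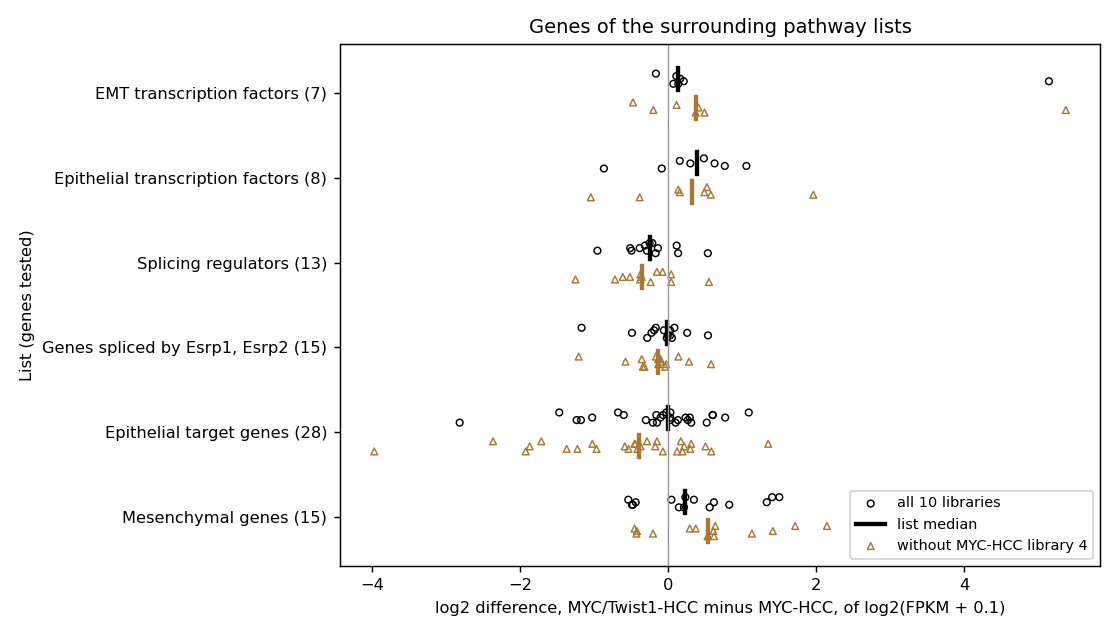
Log2 difference, MYC/Twist1-HCC minus MYC-HCC, of each tested gene in the 6 lists around the members, with all 10 libraries (circles) and without MYC-HCC library 4 (triangles), and the median of each list as a bar. The point at 5.15 is Twist1, and the bar of the epithelial targets moves from 0.00 to -0.39 and that of the mesenchymal genes from 0.24 to 0.54 without library 4.

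For the members above the filter, the 3 genes with the most similar pattern over the 10 libraries were taken by Pearson correlation of log2 levels, as a description. For Zeb1 they were Fut10, Flt1 and Crat, with 0.97, 0.92 and 0.92. For Zeb2 they were Lcp2, Trim30a and Cd38, with 0.95, 0.94 and 0.94. Snai1 was followed by Rgs2 and Spi1, the second and the third of its list, with 0.91 and 0.89, and Esrp2 by Map4k2, Gimap8 and H2-T22 with 0.95, 0.93 and 0.92. The 4 lists shared no gene. Without library 4, 1 of the 3 names stayed for each of Zeb1, Zeb2 and Snai1 (Fut10, Lcp2 and Rgs2) and 2 for Esrp2 (Map4k2 and Gimap8).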

How the data were processed

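Per the labels, RNA came from flash-frozen liver tumors (Qiagen RNeasy, BGI libraries). The authors sequenced single-end reads. Their paper names RSEM and DEseq, whereas the submitters' processing notes name Trimmomatic, STAR, Picard, featureCounts, DESeq2 and mm10, with no versions, so the counting tool is unsure. The values used are the FPKM deposited by the authors, with 2 decimals, and no count table was used. Depth was estimated from genes with models below 150 bp in GENCODE vM21 (GRCm38), where 99.5% to 100% of the values came to whole reads within 0.1 read. No pair of libraries was identical.

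Genes that reached 0.5 FPKM in 5 or more libraries were tested as log2(FPKM + 0.1), a scale that understates the change of low genes, with limma 3.58.1 in R 4.3.3 (moderated variances with a trend, two-sided, Benjamini-Hochberg, threshold 0.05). Members below the filter were tested by exact permutation, unadjusted, and by limma on all 29038 genes with a value above 0. Python 3.11.15 with numpy 2.4.6, pandas 2.3.3, scipy 1.17.1 and matplotlib 3.10.9 was used. The fit was tested on simulated data. The members and lists were chosen with earlier results of these data known. Named are the members, Twist1, from each list the genes called or at most 4 of lowest p, and the 3 genes most like each member above the filter. Cdh1, Mal2, Lsr, St14, Rbm47, Fgfr2, Grhl1 and Grhl3 lie outside this rule and were picked with their values known. The same holds for the genes that overlap a member and those most like Ovol1. Of the marker lists, those of duct cells, macrophages, lymphocytes and exocrine pancreas had summed FPKM of 23.9 to 78.1, 201 to 578, 3.03 to 5.09 and 0.05 to 11.0 in MYC-HCC and 20.8 to 101, 284 to 887, 4.80 to 12.8 and 2.35 to 45.0 in MYC/Twist1-HCC, and no marker of the 8 lists was called with all 10 libraries, while 9 were called higher and 0 lower without MYC-HCC library 4. The labels give no batch. A few genes of the lists and 1 sequence comparison are not reported here.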

Additional observations from a re-analysis of the deposited data

Results flagged for a closer look

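Of the 20 groups of 5 libraries checked for the 10 genes, 2 held a value far from the other 4 by Dixon's test, and chance gives about 1 in 20. The test was made on FPKM and not on the log scale of the other tests. The ratios were 0.729 for Zeb1, close to the limit of 0.71, and 0.886 for Prrx1. Zeb1 was at 3.72 FPKM in MYC-HCC library 4 against 0.51 to 1.38 in the other MYC-HCC. Prrx1 was at 0.59 FPKM in the same library against 0.15 to 0.20. That library also held the highest endothelial (82.1 FPKM) and stellate cell and fibroblast (101 FPKM) marker sums and the lowest macrophage sum (201 FPKM), with a limma quality weight of 0.184, and the part of these in the 2 values was not tested.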

How the results depend on the processing

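Of all genes tested, 3 were called higher and 0 lower. With 1 added 5 were higher, with 0.01 added 1, and with library quality weights 1008 were higher and 1469 lower. Leaving out 1 library at a time gave 1 to 526 higher and 0 to 573 lower: 526 and 573 without MYC-HCC library 4, 32 higher without library 5, and 1 higher without MYC/Twist1-HCC replicate 1 or replicate 4. Of the members above the filter 1 was called higher with quality weights (Zeb1), and with 1 library left out 0 were called in either direction. Of the list genes 8 were higher and 9 lower with quality weights, and 0 to 2 higher and 0 to 5 lower with 1 library left out, where the 2 and 5 came without library 4. Of the members below the filter, 1 had a permutation p below 0.05 with 1 added (Ovol1), and 0 to 2 with 1 library left out, the 2 (Ovol1 and Snai2) without library 4. These p-values are unadjusted, and no share over all genes was taken for this test. In limma without library 4, an unadjusted p below 0.05 was common, with 1554 higher and 2227 lower of the 12146 genes tested. No sign changed for Zeb1, Snai1, Snai2, Foxc2 and Ovol1 under the alternatives run, while Zeb2, Esrp2, Prrx1, Grhl2 and Esrp1 changed sign in some and were called in none. The log2 difference of Zeb2 turned to -0.0851 under quantile normalization and ranged from -0.16 to 0.21 with 1 library left out, turning negative without MYC-HCC library 2 or MYC/Twist1-HCC replicate 1, 4 or 5. That of Esrp2 ranged from -0.0292 (without replicate 5) to 0.12, that of Prrx1 from -0.24 to 0.13 and that of Grhl2 from -0.0257 to 0.0689. Esrp1 gave 0.12 with 0.01 added and -0.0737 to 0.0725 with 1 library left out. Alternatives of paired choices, added after seeing the data (no filter with library 4 left out or with quality weights) gave 0.13 and 0.0854 for Prrx1, 0.0725 and 0.0697 for Esrp1 and -2.42 and -2.33 for Ovol1 (limma adjusted p = 0.0558 and 0.0941). The causes were not tested. Neither scaling moved the median of all genes, -0.04, by more than 0.1 (-0.01 with median ratios, -0.05 with quantiles). A filter on a mean of at least 1 FPKM gave no value for Zeb2. No paired analysis was possible because the MYC-HCC columns carry no replicate numbers of their own. At 0 to 10.8 reads per library, depth limits Foxc2, Grhl2 and Esrp1.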
